A study of Macaca fascicularis and Macaca mulatta and Papio anubis with 20 samples.

Results

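CALCA, CALCB, TAC1 and ADCYAP1, 4 genes of neuropeptides that pain-sensing neurons release, were described across sections of primate dorsal root ganglia, which lie beside the spinal cord and house the cell bodies of sensory neurons. They were taken by gene symbol, without regard to their values, and all 4 were among the 22000 features counted in *Macaca fascicularis*, the 20842 counted in the sections labelled *Macaca mulatta* and the 21369 counted in those labelled *Papio anubis*. The assay was Visium spatial transcriptomics: a section is laid on a slide of barcoded spots, RNA is captured where it lies, and molecular tags (UMIs) allow every molecule to be counted a single time. Each spot may cover more than 1 cell or only a fragment of one, so shares are shares of spots. Of 32952 tissue spots with spot-level counts, 16235 held at least 1 UMI of a peptide gene, and in *M. fascicularis* 13397 of 21897 did.

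Fresh frozen ganglia with no labelled treatment, age or genotype were cut at 10 µm, with sections 100 µm apart. The 16 *M. fascicularis* sections fell into 4 groups of 4, a female and a male in each of 2 labelled batches, and each group carries 1 title code. A title code was treated as a specimen, which the labels neither state nor contradict, so sex and batch were each compared over 4 specimens. The other 4 sections, all of batch 2 and with no sex given, were 2 labelled *M. mulatta* and 2 labelled *P. anubis*. Feature identifiers in the sections labelled *M. mulatta* carry the Ensembl prefix of *P. anubis* and the reverse, so these sections are called by their labels and the species behind each one is not settled here. Ganglion level, pooling and the number of animals are not given in the sources used here. One male section of batch 2, section 3, had section totals and the authors' spatial scores but no spot-level counts used here, and it enters only the results on section sums and on the authors' scores. UMI totals under tissue were 1136433 to 7073134 per *M. fascicularis* section, 190376 and 264661 in the sections labelled *M. mulatta*, and 595020 and 12595205 in those labelled *P. anubis*. All 13 neuron markers with a symbol, of 15 on the list, were detected in every *M. fascicularis* section.

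CALCA and CALCB both encode calcitonin gene-related peptide (CGRP), a vasodilator and a messenger of nociceptors, the neurons that detect harmful stimuli. The CALCA transcript can also be spliced to encode calcitonin, and gene counts do not separate these forms. TAC1 encodes the precursor of substance P and neurokinin A, and ADCYAP1 encodes PACAP (pituitary adenylate cyclase-activating polypeptide), a peptide of the same family as vasoactive intestinal peptide. All of these peptides are cut from precursors, stored in dense-core vesicles and released to act on G protein-coupled receptors, with the CGRP receptor formed by CALCRL and RAMP1. CALCA and CALCB are paralogs with similar sequence, and reads that match both could be split or dropped in counting, so the division of UMIs between them is uncertain.

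CALCA was present in every section, at 333 to 1023 CPM (UMIs scaled to a section total of 1000000) in *M. fascicularis*. In the female of batch 1 the 4 sections held 407, 433, 506 and 424 CPM, and in the male of batch 1 they held 540, 372, 605 and 531 CPM. The female of batch 2 held 478, 365, 333 and 519 CPM. The male of batch 2 held 640, 531, 1023 and 451 CPM, with section 3, the one with no spot-level counts, above all the others. The ranges of the 4 specimens overlapped. The means were 442 ± 43.5, 512 ± 99.2, 424 ± 88.9 and 661 ± 253 CPM (SD over sections, n = 4 each) in that order.

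CALCB reached 719 to 1677 CPM. Its 4 sections held 1144, 1323, 919 and 907 CPM in the female of batch 1 and 1677, 1283, 1313 and 1127 CPM in the male of batch 1. They held 1059, 798, 719 and 963 CPM in the female of batch 2 and 1370.5, 1158, 1202 and 1037 CPM in the male of batch 2. The female and male sections overlapped in both batches, and the highest female section of batch 2 was above the lowest male one. The means were 1073 ± 199, 1350.0 ± 233, 885 ± 155 and 1192 ± 138 CPM (SD over sections, n = 4 each).

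TAC1 was lowest in the female of batch 2. Its sections held 1416, 787, 1009 and 975 CPM in the female of batch 1, and 1013, 746, 1430.0 and 1109 CPM in the male of batch 1. They held 506, 426, 405 and 621 CPM in the female of batch 2 and 1157, 951, 1162 and 954 CPM in the male of batch 2. All 4 sections of the batch 2 female lay below all 12 other *M. fascicularis* sections, a pattern chosen after its values were seen, and 13.6% of 13276 features separated that specimen from the others in one direction or the other (9.69% lower). The means were 1047 ± 265, 1075 ± 282, 489 ± 97.8 and 1056 ± 120 CPM (SD over sections, n = 4 each).

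ADCYAP1 was close to the limit of detection. It gave 144 UMIs over the 16 *M. fascicularis* sections, from 0 in section 1 of the batch 1 female and section 4 of the batch 2 male to 27 in section 2 of the batch 2 female. The group sums were 14 UMIs in the female and 40 in the male of batch 1, and 75 in the female and 15 in the male of batch 2. Mean levels were 0.632 ± 0.613, 1.82 ± 1.23, 3.85 ± 1.86 and 1.37 ± 1.51 CPM (SD over sections, n = 4 each), and the ranges of the specimens overlapped. At this depth little can be said of its spread between spots.

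**Figure D1:**
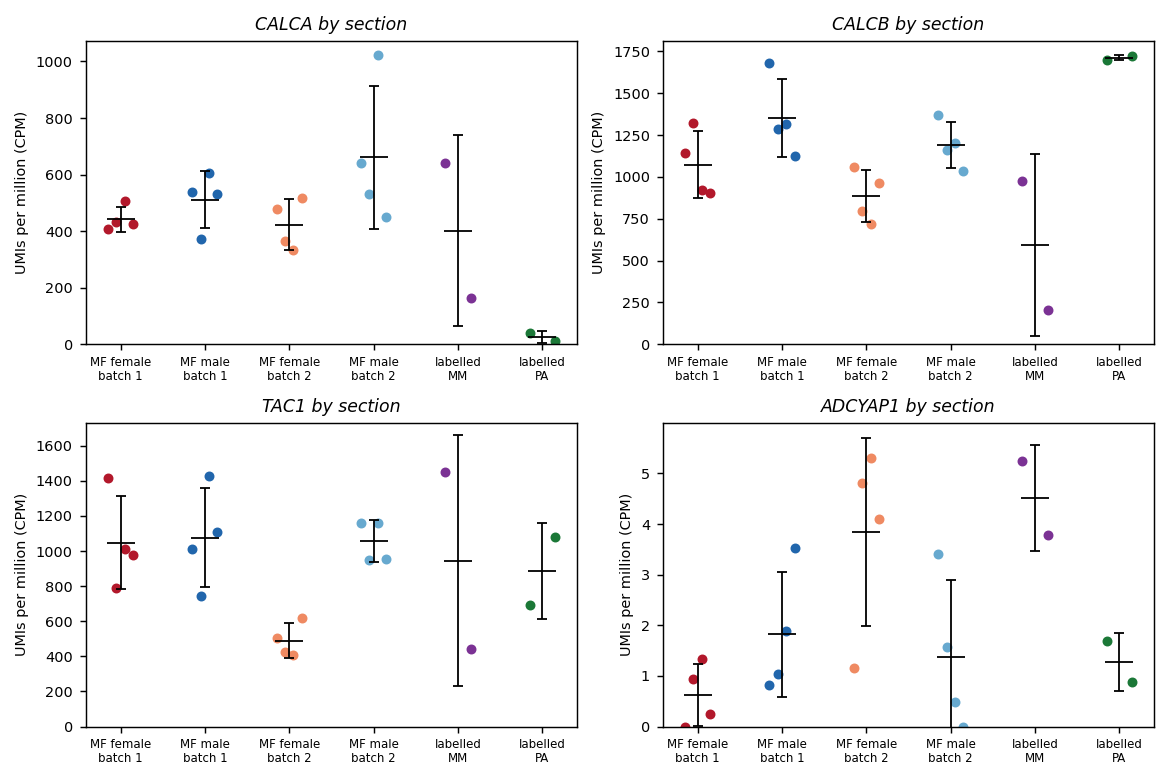
CPM (UMIs scaled to a section total of 1000000, linear axes from 0) of each peptide gene in each of 20 sections (points), with the mean and SD of each group (bars), for *M. fascicularis* (MF) specimens and for the sections labelled *M. mulatta* (MM) and *P. anubis* (PA). TAC1 sits between 405 and 621 CPM in the female of batch 2, CALCA reaches 1023 CPM in 1 male section of batch 2, and CALCA is near 0 in the sections labelled PA.

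None of the 4 genes was called between females and males or between batches. In the edgeR quasi-likelihood fit of specimen sums on batch and sex, no gene passed an adjusted p of 0.05 for sex, a background of 0% of 12650 genes tested, with 169 genes at an unadjusted p under 0.05 and 0 called by DESeq2. The log2 fold changes of female over male were -0.34 (SE 0.24) for CALCA, -0.33 (SE 0.26) for CALCB, -0.55 (SE 0.30) for TAC1 and 0.02 (SE 0.77) for ADCYAP1, with edgeR adjusted p of 0.998 or higher. For batch 2 over batch 1, 2.88% of 12650 genes were called and again 0 of 4 peptide genes. The batch changes were 0.27 (SE 0.24, edgeR adjusted p 0.596) for CALCA, -0.05 (SE 0.26, adjusted p 0.947) for CALCB, -0.37 (SE 0.30, adjusted p 0.555) for TAC1 and 1.13 (SE 0.71, adjusted p 0.446) for ADCYAP1. DESeq2 also called 0 of the 4 for batch. The version of the counting software differed between the batches as well, so batch and version cannot be told apart. By section, 0 of the 4 separated females from males, where 0.0527% of 13276 features did, and 0 separated the batches, where 7.65% did. With 2 specimens on each side, a change of the size seen for TAC1 was within the spread between specimens.

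Summed markers of other cell types differed in mean between the batches beside these values, without a test. The summed level of 7 Schwann cell markers was 3212 to 8990 CPM in the batch 1 female and 4473 to 6494 in the batch 1 male, against 1873 to 2306 and 2394 to 3981 CPM in the female and male of batch 2. Adipocyte markers went the other way, with means of 1356 ± 255 and 1266 ± 163 CPM in batch 1 and 2523 ± 257 and 4841 ± 1041 CPM in batch 2 (SD over sections, n = 4 each). Fibroblast markers were 3086 to 7107 and 4018 to 5878 CPM in the female and male of batch 1, and 2506 to 3357 and 1231 to 2923 CPM in batch 2. The Schwann and fibroblast ranges of the batches overlapped. The part of these markers in the peptide levels was not tested. Since each spot mixes cells, fewer peptide neurons and less peptide RNA per neuron cannot be told apart in any of these values.

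Of all UMIs of the 2 CGRP genes, CALCA held 22.5% to 46.0% in *M. fascicularis* sections, with a mean of 31.1% ± 5.44 (SD, n = 16). These shares use UMIs per gene with no scaling for transcript length and are compared between sections only. In batch 1 the female averaged 29.6% ± 5.02 and the male 27.6% ± 4.91, while in batch 2 the female averaged 32.3% ± 1.83 and the male 34.9% ± 7.42 (SD over sections, n = 4 each). Females and males differed by -0.317 percentage points (exact permutation test over 4 specimens, two-sided p = 1). Batch 2 exceeded batch 1 by 4.997 points (exact permutation test, two-sided p = 0.333, the smallest this design allows). Of all UMIs of TAC1 and CALCB, TAC1 held 32.3% to 55.3%, with the lowest group mean, 35.6% ± 2.86 (SD, n = 4), in the female of batch 2 (exact permutation tests over 4 specimens, p = 1 for sex and 0.667 for batch). The third section of the batch 2 male, at 46.0% for CALCA, was above its 3 companions, which held 30.3% to 31.8%.

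The sections labelled *P. anubis* lay below the *M. fascicularis* range of 22.5% to 46.0% for CALCA. Those labelled *M. mulatta* lay within it only through the third section of the batch 2 male. Every other *M. fascicularis* section held 35.5% or less, below both sections labelled *M. mulatta*. Those labelled *M. mulatta* held 39.6% (95% exact binomial interval 34.1 to 45.3, 308 UMIs) and 43.9% (33.9 to 54.3, 98 UMIs). In the sections labelled *P. anubis* CALCA was 2.32% (1.49 to 3.43, 1036 UMIs) and 0.636% (0.535 to 0.751, 21854 UMIs) of the CGRP UMIs, far below every other section. Intervals cover counting error only. CALCA stood at 40.3 and 11.04 CPM there against 1701 and 1724 CPM for CALCB, while TAC1 was 691 and 1080 CPM. A section labelled *M. mulatta* held 641, 977 and 1450 CPM of CALCA, CALCB and TAC1 and the other held 162, 208 and 442 CPM, so this pair differed several-fold between themselves. Outside the tissue, spots of the former held 753, 780 and 1902 CPM and those of the latter 635, 635 and 1667 CPM. In the latter section all 3 genes were thus higher outside the tissue than in it. ADCYAP1 gave 1 UMI in each section labelled *M. mulatta* and 1 and 11 UMIs in those labelled *P. anubis*. With 1 specimen per label and different gene annotations behind the counts, label, specimen and annotation cannot be told apart, and no test was made. Summed neuron markers were 10794 and 4685 CPM in the sections labelled *M. mulatta*, and 11122 and 19306.5 CPM in those labelled *P. anubis*.

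**Figure D2:**
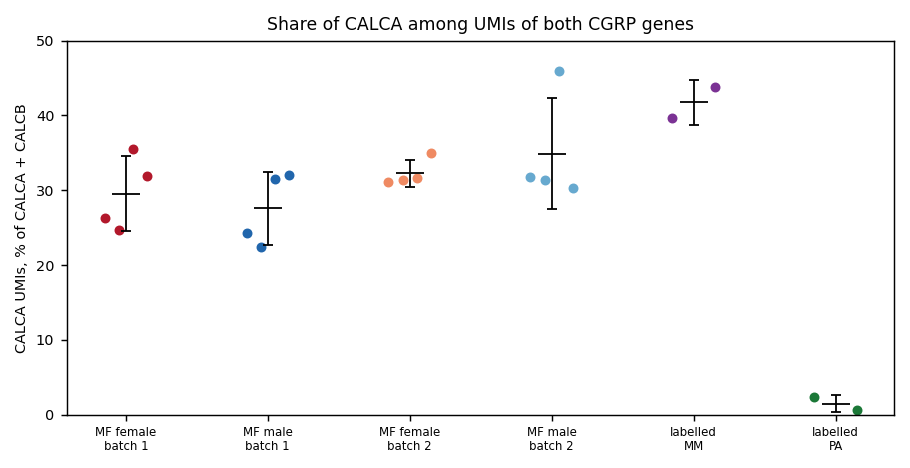
CALCA UMIs as a percent of CALCA plus CALCB UMIs in each section (points), with group mean and SD (bars). *M. fascicularis* sections lie between 22.5% and 46.0%, the sections labelled MM at 39.6% and 43.9%, and those labelled PA at 2.32% and 0.636%.

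Within a section the peptides were unevenly spread. Among *M. fascicularis* spots with at least 200 UMIs, 43.2% ± 12.2 held a UMI of CALCA, 59.3% ± 12.3 of CALCB, 53.8% ± 15.6 of TAC1 and 0.637% ± 0.530 of ADCYAP1 (SD over 15 sections). Spots of a section were divided into 4 equal bins by the share of their UMIs from neuron markers, and the lowest bin served as background, and there 14.99% ± 8.78, 27.2% ± 13.9, 24.5% ± 14.4 and 0.0739% ± 0.166 held a UMI. Depth differed between these spots, with median UMIs per spot of 335 to 1051.5 in the lowest bin and 698.5 to 12709 in the highest bin across sections. After each spot was thinned to 500 UMIs, the shares in the highest and the lowest bin were 16.4% ± 5.04 and 9.73% ± 5.89 for CALCA, 36.6% ± 8.33 and 20.2% ± 11.5 for CALCB, and 26.5% ± 10.4 and 18.6% ± 12.4 for TAC1 (SD, n = 15). The 5% of spots richest in a gene's UMIs held 48.5% ± 11.6 of those of CALCA, 38.9% ± 10.8 of CALCB and 49.4% ± 12.6 of TAC1. The corresponding share was 25.8% ± 6.77 for all UMIs and 31.1% ± 8.09 for the neuron list (SD, n = 15).

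CALCA and TAC1 were lower in the spots richest in neuron markers than in all other spots. Spots were ranked in each section by the share of their UMIs from 15 neuron markers that include no peptide gene, and the highest bin was set against the rest, paired by specimen. CALCA was lower in the neuron-high spots, with 341, 412, 315 and 566 CPM in the 4 specimens against 549, 581, 558 and 578 CPM in the other spots, which was -0.47 on the log2 scale (SE 0.098, edgeR adjusted p 0.00186). TAC1 was lower as well, with 769, 842, 364 and 944 CPM against 1150.0, 1233, 646 and 1102 CPM, a change of -0.50 (SE 0.085, edgeR adjusted p 0.000396). Both genes were lower in all 4 specimens, the least in the male of batch 2. CALCB, lower in 3 specimens and higher in the male of batch 2 (1295 against 1235 CPM), differed by -0.12 (SE 0.074, edgeR adjusted p 0.197) and ADCYAP1 differed by 0.46 (SE 0.37, edgeR adjusted p 0.342). So 2 of 4 peptide genes were called (0 without the pairing by specimen), against a background of 38.3% of 11530 genes tested, of which 20.8% were lower. That CALCA and TAC1 were called is therefore not unusual among genes, and the description below concerns their direction. CALCB was also called lower, at -0.18 (edgeR adjusted p 0.0138), when the male of batch 2 was left out.

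This direction depended on what the neuron-high spots were compared with. Averaged over 15 sections, CALCA was 236 ± 136 CPM in the lowest bin by neuron share, 511 ± 141 and 615 ± 94.1 CPM in the middle bins and 398 ± 125 CPM in the highest (SD). CALCB stood at 537 ± 327, 1063 ± 309, 1316 ± 271 and 1069 ± 292 CPM, and TAC1 at 527 ± 394, 1044 ± 460, 1102 ± 321 and 744 ± 324 CPM. The highest level was in the third bin in 12 of 15 sections for CALCA, 14 for CALCB and 10 for TAC1. Against the lowest bin alone, the neuron-high spots held more CALCA, by 0.69 on the log2 scale (SE 0.19, edgeR adjusted p 0.0125), and more CALCB, by 0.99 (SE 0.23, adjusted p 0.00595), with TAC1 at 0.50 (SE 0.22, adjusted p 0.0900). This comparison was added after the data were seen. In the male of batch 2 the profile was nearly flat, with CALCA at 469 ± 100.4, 572 ± 78.9, 568 ± 78.3 and 511 ± 151 CPM (SD, n = 3).

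Summed nociceptor genes had the same profile as the peptides and summed large-fibre genes did not. A list of 14 nociceptor genes, 13 with a symbol, summed to 341 ± 174, 684 ± 208, 868 ± 237 and 620 ± 187 CPM from the lowest to the highest bin (SD, n = 15), with its maximum in the third bin in 12 of 15 sections. A list of 10 genes of large-fibre neurons, which serve touch and body position, was highest in the last bin, at 3237 ± 1381, 4339 ± 1726, 5323 ± 2081 and 10016 ± 4289 CPM, with its maximum in the highest bin in all 15 sections. That sum mostly follows NEFH and SPP1, at means of 4916 and 1532 CPM over sections. PVALB averaged 363 CPM and each other gene of the list 12.8 CPM or less. Of all 11530 genes tested, 38.3% were called in neuron-high spots: 20.8% of the 11530 were called lower and the rest of the called genes higher. Of 10 nociceptor genes tested, 6 were lower and 1 was higher in neuron-high spots, with a median log2 fold change of -0.40 against -0.03 over all genes. SCN11A, a sodium channel of nociceptors, changed by -0.63 (SE 0.10, edgeR adjusted p 0.000313) and TRPV1, the capsaicin receptor, by -0.62 (SE 0.085, edgeR adjusted p 7.55e-05). GFRA3, the receptor of artemin, changed by -0.36 (SE 0.089, edgeR adjusted p 0.00571). Of 8 large-fibre genes tested, 5 were higher and 1 was lower, with a median of 0.77. They included the calcium-binding protein PVALB at 1.15 (SE 0.14) and the neurofilament NEFH at 1.17 (SE 0.11), both with edgeR adjusted p under the threshold.

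**Figure D3:**
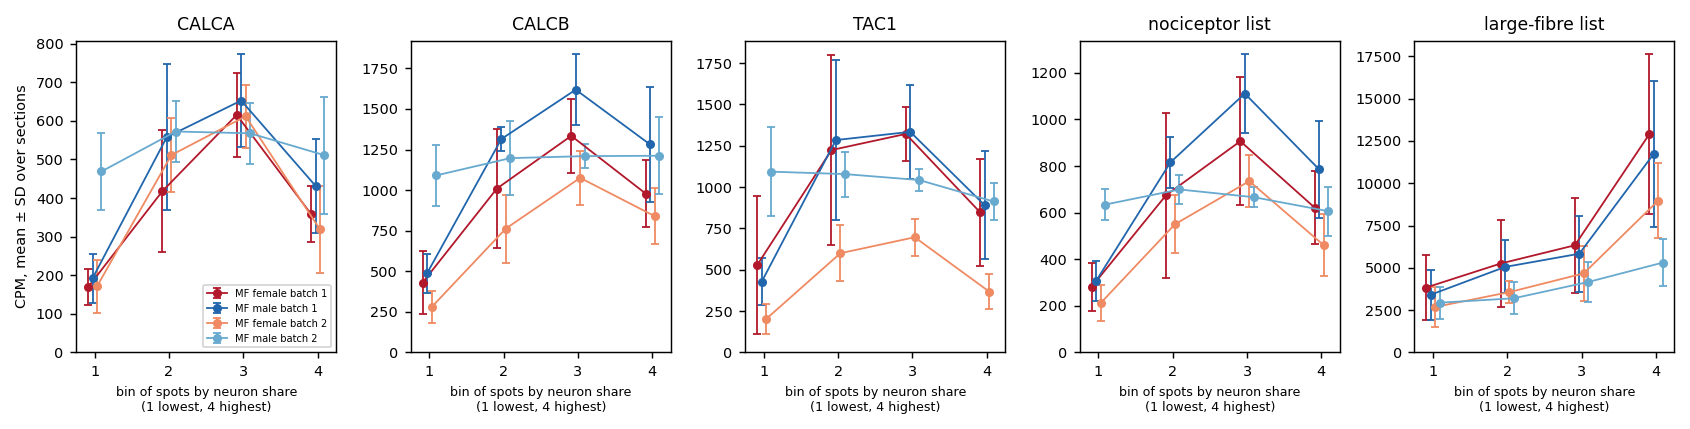
Mean CPM (± SD over sections, linear axes from 0) of CALCA, CALCB, TAC1 and the summed nociceptor and large-fibre lists in bins of spots ranked by neuron-marker share, one line per *M. fascicularis* specimen (4, 4, 4 and 3 sections). The peptide genes and the nociceptor list peak in the middle bins in 3 of the specimens and are nearly flat in the male of batch 2, and the large-fibre list is highest in the fourth bin in all 4.

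CALCA, CALCB and TAC1 were found in the same spots. Among *M. fascicularis* spots with at least 200 UMIs, 6676 held both CALCA and CALCB, which was 85.5% of spots with CALCA and 62.6% of those with CALCB. CALCA and TAC1 met in 6184 spots, 79.2% of those with CALCA and 65.3% of those with TAC1. CALCB and TAC1 met in 7788 spots, 73.0% of those with CALCB and 82.2% of those with TAC1. Deep spots hold more of every gene, so odds ratios were also stratified by 10 bins of UMI depth within each section. The stratified ratio over all sections was 2.19 for CALCA with CALCB, 2.26 for CALCA with TAC1 and 2.28 for CALCB with TAC1, and it was above 1 in 15 of 15 sections for each pair. At equal depth 6333, 5778 and 7392 shared spots were expected for these pairs, so the excess in shared spots was small. The median ratios over sections were 10.9, 9.18 and 10.4 without the strata and 2.49, 2.50 and 2.61 with them, so most of the plain overlap went with depth.

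The overlap was weakest in the male of batch 2, where the CALCA with CALCB ratio was 1.17 to 1.19 over its 3 sections, against 1.91 to 4.05 in the 12 sections of the other specimens. Within neuron-high spots only, the ratios were 2.18, 2.04 and 2.06, above 1 in 13, 13 and 15 of 15 sections. All 3 genes were seen together in 32.7% ± 13.6 of spots, in 46.5% ± 18.5 of neuron-high spots and in 6.36% ± 6.96 of spots of the lowest neuron bin (SD, n = 15). ADCYAP1 met CALCA in 95 spots where 105 were expected at equal depth, CALCB in 124 where 125 were expected and TAC1 in 111 where 110 were expected. No excess of overlap with ADCYAP1 was detectable at this depth.

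In the sections labelled *P. anubis*, nearly all spots with CALCA also held CALCB, 97.2% of them, while 7.04% of spots with CALCB held CALCA. CALCB and TAC1 shared 1259 spots there, with a stratified ratio of 2.36. In the sections labelled *M. mulatta*, 155 and 165 spots passed 200 UMIs, and the ratios of 4.84, 4.88 and 6.22 rest on 23, 26 and 34 shared spots.

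**Figure D4:**
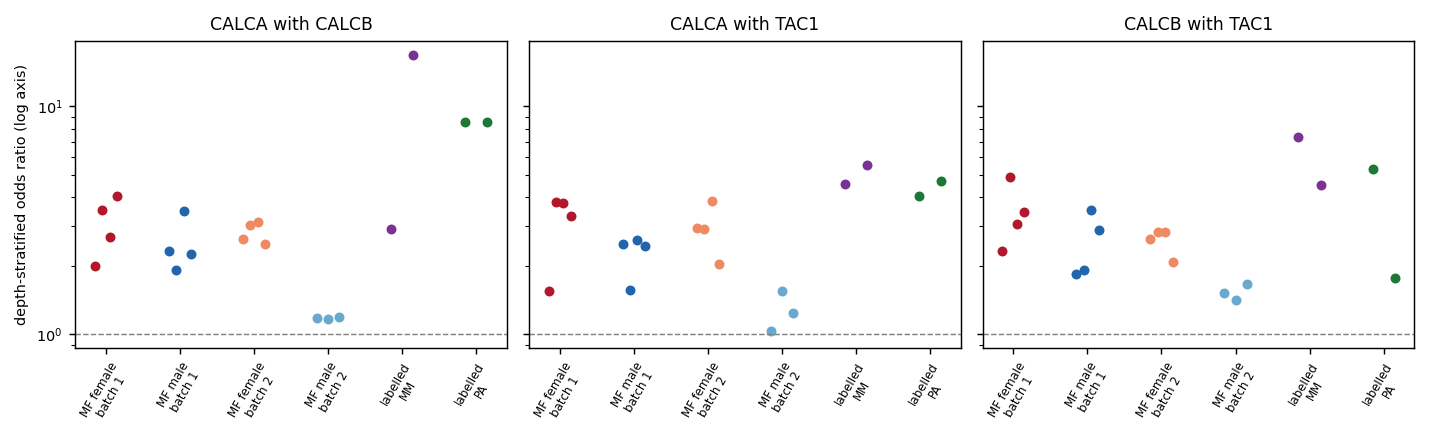
Depth-stratified odds ratio (log axis) that 2 peptide genes have a UMI in the same spot, one point per section, for the 3 pairs of CALCA, CALCB and TAC1. Every *M. fascicularis* point is above 1 (dashed line), and the 3 sections of the batch 2 male are the lowest for CALCA with CALCB, at 1.17 to 1.19.

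Levels showed the same link as presence. Within neuron-high spots, those with and without a given peptide were summed by specimen and compared. In spots with CALCA, CALCB was 1037, 1298, 999 and 1397 CPM against 415, 646, 440 and 1082 CPM in spots without it, which was 0.98 higher on the log2 scale (SE 0.074, edgeR adjusted p 5.44e-16). TAC1 differed there by 1.07 (SE 0.079, edgeR adjusted p 3.5e-16). In spots with CALCB, CALCA was higher by 1.24 (SE 0.11, edgeR adjusted p 6.59e-17) and TAC1 by 1.08 (SE 0.10, edgeR adjusted p 4.24e-16). In spots with TAC1, CALCA was higher by 1.08 (SE 0.087, edgeR adjusted p 9.79e-23) and CALCB by 0.77 (SE 0.072, edgeR adjusted p 2.56e-18). Each of these differences had the same direction in all 4 specimens.

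In all, 6 of the 9 ordered pairs that could be tested, of 12, were called, and all 6 were higher. Without the pairing by specimen 0 pairs were called. The background was 9.12% of 9429 genes called (4.61% higher) for spots with CALCA, 7.89% of 8084 (3.46% higher) for CALCB and 4.34% of 9341 (2.04% higher) for TAC1. The remaining 3 tested pairs were those of ADCYAP1-positive spots, where CALCA, CALCB and TAC1 changed by 0.10 (SE 0.16), 0.04 (SE 0.15) and 0.22 (SE 0.15), each with an edgeR adjusted p of 0.998 and against a background of 0.182% of 7701 genes. Only 73 neuron-high spots held ADCYAP1. Positive spots were deeper than free ones, with section medians of 1512 to 13397 UMIs against 543 to 4810 for CALCA, and the 6 called changes kept their direction and call when presence was read after thinning each spot to 500 UMIs, while the 3 of ADCYAP1-positive spots turned negative and stayed uncalled. After thinning, 4 neuron-high spots held ADCYAP1, 3 in the female and 1 in the male of batch 2. The section share of UMIs from neuron markers was 1.09% to 1.63% with CALCA and 1.15% to 1.64% without.

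Nociceptor genes were higher and large-fibre genes lower in peptide-positive spots. With CALCA, 7 of 7 nociceptor genes tested were higher, among them SCN11A at 1.20 (SE 0.097, edgeR adjusted p 8.25e-15) and TRPV1 at 1.22 (SE 0.13, edgeR adjusted p 1.14e-10). The median over the 7 was 1.20 on the log2 scale against 0.00 over all genes. Of 13 nociceptor genes with a symbol, only these 7 passed the expression filter. For each peptide a gene could pass that filter through the sums of 1 spot class alone. A count over the genes tested may therefore favour genes that are high in that class. The receptor tyrosine kinase KIT differed by 1.77 and the itch receptor gene MRGPRX1 by 1.58. These 2 genes were named after their values were seen. Of 5 large-fibre genes tested 4 were lower, including PVALB at -0.57 (SE 0.062, edgeR adjusted p 2.57e-10) and NEFH at -0.37 (SE 0.056, edgeR adjusted p 1.52e-06). With CALCB, 5 of 6 nociceptor genes were higher and 3 of 4 large-fibre genes lower, and with TAC1, 6 of 7 were higher and 3 of 4 lower. In ADCYAP1-positive spots none of 6 nociceptor genes and none of 4 large-fibre genes was called by edgeR.

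The machinery around the peptides moved unevenly. Of 5 genes of dense-core vesicles tested, the granins SCG2 and SCG3 were higher with each of the 3 peptides: in CALCA-positive spots SCG2 differed by 0.98 (SE 0.082, edgeR adjusted p 2.65e-14) and SCG3 by 0.65 (SE 0.066, edgeR adjusted p 1.87e-11). CHGB, another granin, stood at 0.00 (SE 0.064) there and PTPRN, a vesicle membrane protein, at 0.05 (SE 0.066). CHGA, named after its values were seen, was lower with CALCA at -0.39 (SE 0.0697, edgeR adjusted p 4.55e-05), and PTPRN was higher with CALCB at 0.37 (SE 0.10, edgeR adjusted p 0.00763). Of the peptide-processing enzymes, 1 of 5 tested was called with CALCA, the carboxypeptidase CPE at -0.19 (SE 0.061, edgeR adjusted p 0.0352), and 0 of 4 and 0 of 5 with CALCB and TAC1. In edgeR the convertase PCSK2 was at 0.30 (SE 0.11, adjusted p 0.0974) with CALCA, the convertase FURIN at 0.09 (SE 0.11, adjusted p 0.704) and PAM, which amidates peptides, at 0.17 (SE 0.071, adjusted p 0.128).

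Receptor genes were mostly too rare to test in spot classes. Of 11 receptor and receptor-partner genes, 10 had a symbol and 3 were tested, the accessory proteins RAMP1, RAMP2 and RAMP3. RAMP3 was lower with CALCA at -0.38 (SE 0.068, edgeR adjusted p 4.34e-05). All 3 were lower with CALCB, where RAMP1 differed by -0.73 (SE 0.21, edgeR adjusted p 0.0134), and RAMP1 was lower with TAC1, at -0.58 (SE 0.18, edgeR adjusted p 0.0432). In neuron-high spots RAMP1 differed by -1.13 (SE 0.11), RAMP2 by -1.17 (SE 0.12) and RAMP3 by 0.37 (SE 0.073), all with edgeR adjusted p of 0.00116 or less. VIPR1, a receptor of vasoactive intestinal peptide and PACAP, averaged 0.855 CPM over *M. fascicularis* sections.

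Among 4 other peptide genes tested with CALCA, somatostatin (SST) was higher by 0.94 (SE 0.15, edgeR adjusted p 4.17e-06) and adrenomedullin (ADM) was lower, at -0.42 (SE 0.13, edgeR adjusted p 0.0281). Cholecystokinin (CCK) stood at 0.60 (SE 0.21, edgeR adjusted p 0.0589) and neuromedin U (NMU) at -0.12 (SE 0.21, edgeR adjusted p 0.815). In ADCYAP1-positive spots SST was lower, at -1.37 (SE 0.33, edgeR adjusted p 0.019), the single gene of the 7 lists called there. Most of these spots, 53 of 73, lay in the female of batch 2, so the call rests on few spots in the other specimens. With TAC1, SST and CCK were higher, by 1.09 (SE 0.14, edgeR adjusted p 5.63e-10) and 1.03 (SE 0.27, edgeR adjusted p 0.00892). Of 3 peptide-degrading enzymes tested, MME (neprilysin), which cleaves substance P, was lower with CALCA at -0.52 (SE 0.12, edgeR adjusted p 0.0021) and with CALCB at -0.93 (SE 0.19, edgeR adjusted p 9.8e-05), and with TAC1 stood at -0.50 (SE 0.16, edgeR adjusted p 0.0552). ECE1 and IDE were not called in the fits for these 3 peptides. Between batches, MME fell in batch 2 by 2.16 on the log2 scale (SE 0.24, edgeR adjusted p 0.00579), the nociceptor sodium channel SCN10A rose by 2.41 (SE 0.49, edgeR adjusted p 0.0453; mean over the sections of both batches 3.79 CPM), and SPP1 was lower by -1.42 (SE 0.30, edgeR adjusted p 0.0494). SCN10A was named because it was 1 of the 3 genes of the 7 lists called between batches, and none was called by edgeR between sexes.

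Over spots, CALCA and CALCB were each most like the other and TAC1, and TAC1 was most like CALCA. Likeness was the median over 15 *M. fascicularis* sections of the correlation of depth-corrected residuals across spots, given as a description, over 5558 genes. CALCA was most like TAC1 (r = 0.59, 0.28 to 0.69 over sections), then CALCB (0.53), SCG2 (0.44), LXN (0.32) and GNAS (0.29). CALCB was most like TAC1 (0.54), CALCA (0.53), SCG2 (0.43), LXN (0.40) and SCG3 (0.40). TAC1 was most like CALCA (0.59), SCG2 (0.55), CALCB (0.54), TRPV1 (0.34) and GNAS (0.30). The points share section and spot depth. For ADCYAP1, in 13 sections, the highest were CLU (0.07), VAT1L (0.07), TM2D2 (0.05), MICALL2 (0.04) and TAC1 (0.04), too weak in such sparse counts to set these genes apart.

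Neighbouring spots resembled each other in CALCA, CALCB and TAC1. In the authors' deposited table of Moran's I, a score that is positive where near spots have similar values, TAC1 had an adjusted p under 0.05 in 16 of 16 *M. fascicularis* sections and CALCA and CALCB in 15 of 16 each, against 16.2% of all gene and section pairs scored (5.42% to 40.6% by section). The exception for both was section 4 of the batch 2 male, with an authors' adjusted p of 0.309 for CALCA and 0.262 for CALCB in the authors' deposited table. The median I in the authors' deposited table was 0.133 for CALCA, 0.235 for CALCB and 0.214 for TAC1, with highest values of 0.309, 0.662 and 0.429. CALCB at 0.662 was the highest of all 13909 genes scored in section 2 of the batch 1 female, per the authors' deposited table. Its median rank over sections in the authors' deposited table was 28.5, against 49 for TAC1 and 123 for CALCA.

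Group means of the score were higher in batch 1 than in batch 2, with overlapping sections and no test. The authors' deposited table gave mean CALCB values of 0.379 (female) and 0.368 (male) for batch 1 against 0.162 and 0.112 for batch 2, and mean TAC1 values of 0.292, 0.342, 0.0973 and 0.128. Median UMIs per tissue spot were 700 to 5145 in sections of batch 1 and 398 to 1671 in those of batch 2 with spot counts, and their part in I was not tested. Scores computed here over hexagonal neighbours on depth-scaled values placed the 3 genes above 95% of features with at least 50 UMIs in all 15 *M. fascicularis* sections, except for CALCB in section 4 of the batch 2 male. ADCYAP1 had a score in 14 sections and an adjusted p under 0.05 in 1, section 3 of the batch 1 male, at 0.0244 with 7 UMIs in the section, per the authors' deposited table. In the sections labelled *P. anubis* the authors' deposited table gave CALCB 0.0574 and 0.413 and TAC1 0.0411 and 0.305, with both genes past the threshold in 2 of 2 sections and CALCA in 1, against 14.1% of pairs scored. In the sections labelled *M. mulatta* CALCB and TAC1 passed in 2 of 2 and CALCA in 0, against 3.04% of pairs scored in the authors' deposited table. The scores computed here, in spots with at least 200 UMIs, ranked lower there than in *M. fascicularis*. They placed CALCB above 74.5% and 80.9% of features and TAC1 above 15.4% and 88.8%.

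**Figure D5:**
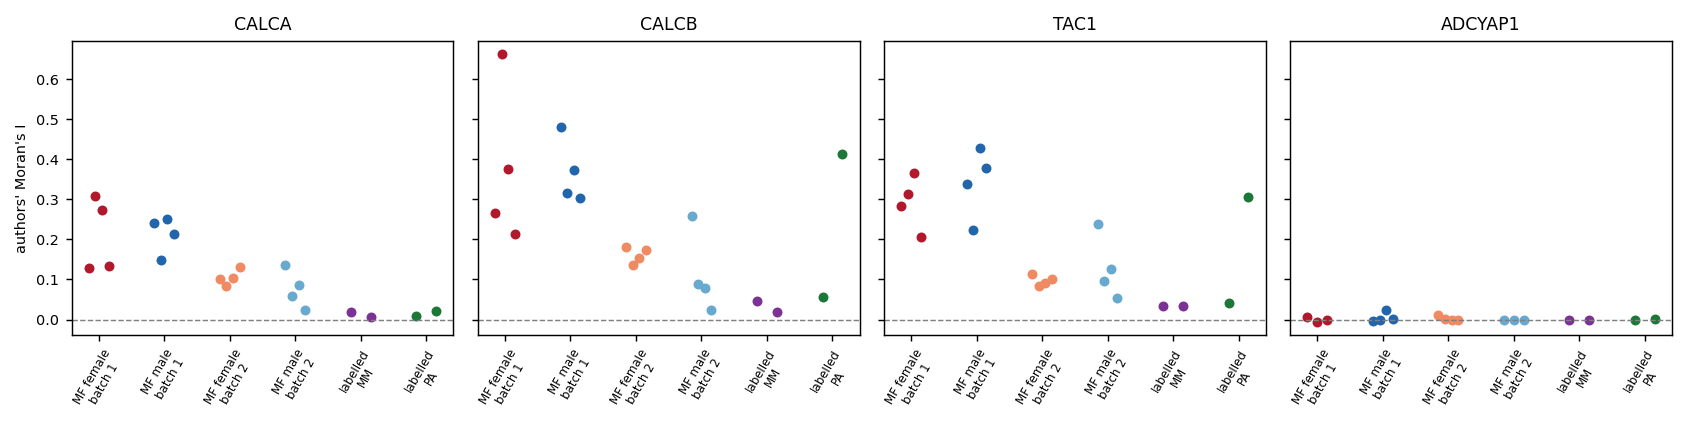
Authors' Moran's I of each peptide gene, one point per section (linear axis, dashed line at 0). Values reach 0.662 for CALCB, batch 1 sections are mostly above batch 2 sections for CALCA, CALCB and TAC1, and ADCYAP1 stays near 0.

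Around the spots richest in a peptide, its mean level was higher 1 spot away than 4 spots away. With the 5% richest spots of each section taken as centres, the level relative to the section mean was 0.704 ± 0.132 at 1 spot away, 0.634 ± 0.129 at 2 and 0.515 ± 0.178 at 4 for CALCA, and 0.689 ± 0.154, 0.610 ± 0.146 and 0.532 ± 0.203 for TAC1 (SD, n = 15). CALCB was 0.864 ± 0.123, 0.807 ± 0.109 and 0.743 ± 0.176, and the neuron list was 0.980 ± 0.0375, 0.946 ± 0.0409 and 0.890 ± 0.0958. The section mean includes the centres, which are the richest spots by choice. Values under 1 are therefore set by that choice and are no finding on the neighbours. Spots outside the tissue carried peptide UMIs too. In *M. fascicularis* their CPM relative to tissue spots was 0.815 ± 0.229 for CALCA, 0.799 ± 0.182 for CALCB and 0.892 ± 0.298 for TAC1 (SD, n = 15). They held few UMIs per spot, 37.6 ± 22.3 of CALCA per 1000 spots against 1444 ± 760 per 1000 tissue spots. A UMI in a spot therefore need not come from a cell in that spot.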

How the data were processed

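Per the file headers, Space Ranger 2.0.0 (12 sections) or 2.1.0 (7 sections) made the UMI counts per spot and gene that the authors deposited; the submitters' processing notes name the build Mmul_10, and how each annotation was used is not given in the sources used here. Among *M. fascicularis* sections with a header, all of batch 1 carried 2.0.0 and all of batch 2 carried 2.1.0. Batch and version thus cannot be told apart there. The sections labelled *M. mulatta* and *P. anubis*, of batch 2, carried 2.0.0. The authors' deposited tables also hold section totals and Moran's I scores with p-values. CPM are counts scaled to 1000000 tissue UMIs per section. Counts were summed per title code and fitted with edgeR 4.0.16 (quasi-likelihood, Benjamini-Hochberg over all genes, threshold 0.05), with batch and sex as terms or, for spot classes, paired by specimen, and with DESeq2 1.42.0 as an alternative; scripts were tested on simulated data. The p-values measure only the spread between these specimens, which may be technical where sections share an animal. Spots needed 200 UMIs. Odds ratios used 10 depth bins, and thinning drew 500 or 1000 UMIs per spot, leaving out shallower spots. Fixed by rule, the text names the 4 peptide genes, the 4 genes of each list with the highest mean CPM, and the 5 genes most like each peptide. Of the genes this rule names, 1 is counted with its list and not otherwise reported here. The members and lists were chosen with earlier results of these data known. Section numbers did not meet the rule for pairing, a correlation of deviations over 0.1 in every pair: 10 of 24 same-numbered pairs of different groups passed it (median 0.0117), as did 18 of 72 differently numbered pairs, and 2 of 16 sections correlated best with their own number. Sections of a group differed beyond sampling noise (chi-square per degree of freedom 3.93 to 21.7), so none was counted as a library deposited again; this does not show that they come from separate animals. Intervals are 95% exact binomial.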

Additional observations from a re-analysis of the deposited data

Results flagged for a closer look

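Of 38 groups of 4 sections examined, 3 held a section whose gap to its nearest neighbour, divided by the range of its group, passed Dixon's critical value of 0.829; chance gives about 1 in 20. In the male of batch 2, the third section held 46.0% of CGRP UMIs as CALCA, against 30.3% to 31.8% in the other sections. In the female of batch 2, the fourth section held 35.0%, against 31.1% to 31.6%. In the male of batch 1, the authors' deposited table gave ADCYAP1 a Moran's I of 0.0244 in the third section, against -0.00316 to 0.00127 in the others, on 7 UMIs.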

How the results depend on the processing

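No peptide gene was called for sex or batch under any alternative or with any section left out (0 to 0). With section number as a replicate block, the sex changes were -0.31, -0.29 and -0.49 and the batch changes 0.28, -0.10 and -0.41 for CALCA, CALCB and TAC1, all uncalled. Without the replicate block of specimens, the neuron-high comparison called 0 peptide genes and the peptide-positive comparison 0 pairs. With single sections left out they called 2 and 6. Over the alternatives the highest counts were 3 genes and 8 pairs. In ADCYAP1-positive spots CALCA and TAC1 each passed the threshold under at least 1 alternative, and CALCB under none. Against the lowest bin by neuron share alone, neuron-high changes turned to 0.69 for CALCA, 0.99 for CALCB and 0.50 for TAC1, since the reference spots differ. ADCYAP1 gave unstable signs at its depth. For sex it was -0.000881 with DESeq2, -0.061 without TMM scaling and -0.15 to 0.45 with sections left out, and in neuron-high spots it was -0.51 without the female of batch 2. The batch change of CALCB was -0.10 to 0.032 with sections left out. In ADCYAP1-positive spots CALCA was -0.15 with DESeq2, -0.17 at 1000 UMIs or more, -0.56 with neurofilament genes in the neuron list, -1.22 after thinning to 500 UMIs, -0.40 without the male of batch 1, -0.046 without the female of batch 2 and -0.31 to 0.23 with sections left out. CALCB was -0.033 with no filter, -0.11, -0.45, -0.98, -0.25 and -0.031 in the same order from 1000 UMIs on, -0.052 ranked by residual, and -0.011 to 0.091 with sections left out. TAC1 was -0.089, -0.44, -1.36 and -0.32 at 1000 UMIs, with neurofilament genes, after thinning and without the male of batch 1. The values after thinning rest on 4 ADCYAP1-positive spots, all in batch 2. The causes were not tested.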

Other observations

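In batch 1 the CALCA share of CGRP UMIs was 22.5% to 26.2% in sections 1 and 2 of both specimens and 31.5% to 35.5% in sections 3 and 4. Means were 24.4% ± 1.55 and 32.7% ± 1.84 (SD, n = 4 each). The labels do not say what separates these sections, the pattern was seen in the data and no test was made. In batch 2 the corresponding means were 31.4% ± 0.303 and 35.7% ± 7.11.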
